A study of Mus musculus with 4 samples.

Results

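Laminins are the polymer-forming glycoproteins of basement membranes, and 8 genes of laminin chains (Lama2, Lama3, Lama4, Lama5, Lamb1, Lamb2, Lamb3 and Lamc1) and the gene of the laminin-binding protein nidogen 1 (Nid1) were followed across 4 RNA-Seq libraries from mouse lung. The 9 genes were taken by symbol, with no threshold on their values, from the 49315 genes in the count table, and all 9 were among the 14840 genes that reached 1 CPM, the reads of a gene scaled to a common library size, in some library. The libraries came from cells labelled as group 2 innate lymphoid cells (ILC2s), lymphocytes that release type 2 cytokines and growth factors in inflamed tissue. In the study, ILC2s were sorted from lung as Lineage-negative, Thy1.2+, ICOS+ and T1/ST2+ cells, which were then kept in culture with IL-2.

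PBS-WT came from wild-type (C57BL/6) mice given PBS, and PBS-HPS1 from mice that lack Hps1 (Hps1-/-) and were given PBS. BLEO-WT came from wild-type mice given bleomycin, a drug that injures the lung and leads to fibrosis, and BLEO-HPS1 from Hps1-/- mice given bleomycin. Loss of Hps1, which encodes a subunit of a complex that builds lysosome-related organelles, is the genetic lesion of Hermansky-Pudlak syndrome type 1, a disease with progressive pulmonary fibrosis. The labels give neither the age of the mice nor the route, dose and time of bleomycin, and the number of mice behind each library is not given in the sources used here. The libraries were made from 22405 cells (PBS-WT), 38873 cells (PBS-HPS1), 84166 cells (BLEO-WT) and 128647 cells (BLEO-HPS1).

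Each laminin is a trimer of an alpha, a beta and a gamma chain. The short arms of the chains join trimers into a sheet, and the end of the alpha chain binds integrins and dystroglycan on the cell surface. Nidogen binds the gamma 1 chain and type IV collagen, and so links the laminin sheet to the collagen network. In the lung, basement membranes made of these chains lie under the airway and alveolar epithelium and around capillaries and smooth muscle, and their chains are made by epithelial, endothelial and mesenchymal cells. Lymphocytes are not known as a main source.

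Total counts lay between 72513619 and 87638154 per library, and 3 reads, the most that a count of 0 would allow, equalled 0.0303 to 0.0475 CPM. Hps1 itself was read 2989 times in PBS-WT, 1647 times in PBS-HPS1, 3795 times in BLEO-WT and 1347 times in BLEO-HPS1, so its transcript was lower but not absent in both Hps1-/- libraries. The cell type label was checked against markers. Macrophage markers summed to 1.45 to 1.99% of all counts and ILC2 markers to 0.0557 to 0.0930%, so that RNA of other cells was present in every library. There was 1 library per group. The spread between mice is therefore unknown, no p-value for a condition can be given, and the 95% intervals below cover counting error only. Those of a ratio are exact Clopper-Pearson intervals, from the reads of 2 libraries or of a pair of genes in 1 library. Those of a difference between log2 ratios use a normal approximation with the reads of all 4 libraries. The error bars of single levels are Poisson intervals from 1 library. In such bulk samples more cells of a type and more RNA per cell cannot be told apart.

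Together the 9 genes took 0.0161 and 0.0255% of the counts of PBS-WT and PBS-HPS1, and 0.0213 and 0.0310% of those of BLEO-WT and BLEO-HPS1. Their summed level was 149 CPM in PBS-WT, 200 CPM in PBS-HPS1, 238 CPM in BLEO-WT and 380 CPM in BLEO-HPS1. The library of bleomycin-treated Hps1-/- mice thus held the most laminin and nidogen 1 RNA. The genes did not move as a block: Lamb2, Lama2, Lama4 and Nid1 exceeded BLEO-WT at least 2-fold in BLEO-HPS1, Lama3 was at least 2-fold lower there, and Lamc1, the chain with the most reads, was higher with bleomycin in both genotypes.

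The DNA just upstream of 3 of the 4 genes that exceeded BLEO-WT at least 2-fold in BLEO-HPS1, and of Lama5, which was not, is shown so that these starts can be compared. Each is the 100 bases before the first annotated exon base at or upstream of the RefSeq start, read 5′ to 3′ on the strand of the gene, from RefSeq on GRCm38.p6. They are the windows at chr10:27616943-27617042 (minus strand) for Lama2, chr9:108479636-108479735 (plus strand) for Lamb2, chr13:13437451-13437550 (plus strand) for Nid1 and chr2:180225860-180225959 (minus strand) for Lama5. Capitals mark matches to a GC box (GGGCGG) or a CCAAT box (CCAAT) on either strand.
Lama2: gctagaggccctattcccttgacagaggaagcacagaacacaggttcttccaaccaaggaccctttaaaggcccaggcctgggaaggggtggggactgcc
Lamb2: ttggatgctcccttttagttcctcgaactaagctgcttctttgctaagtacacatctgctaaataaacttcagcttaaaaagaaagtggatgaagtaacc
Nid1: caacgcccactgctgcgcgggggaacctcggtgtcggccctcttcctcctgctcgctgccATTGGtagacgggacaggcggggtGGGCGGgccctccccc
Lama5: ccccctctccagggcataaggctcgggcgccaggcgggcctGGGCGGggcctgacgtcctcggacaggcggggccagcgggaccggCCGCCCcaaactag

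The windows differ in base composition, from 38% G and C for Lamb2 and 58% for Lama2 to 73% for Nid1 and 77% for Lama5. The Lama5 window holds 2 GC boxes and the Nid1 window 1 GC box and 1 CCAAT box, while the Lama2 and Lamb2 windows hold neither. A GC box stands in 24.7% and a CCAAT box in 18.9% of the 32851 promoter windows of the same length. Those windows end at the RefSeq start, unlike the Lamb2 and Nid1 windows, so for these genes the shares are not matched in position. The TATA box (TATAAA, 5.56% of windows), the AP-1 site (TGANTCA, 2.73%), the cAMP response element (TGACGTCA, 1.15%) and the SMAD palindrome (GTCTAGAC, 0.0457%) were searched on both strands as well and are in none of the 4 windows. No motif searched is thus shared by the windows of the 3 genes that were higher in BLEO-HPS1, and bases outside these windows are not covered. The Lama2 window lies within an intron of a longer GENCODE model of the gene, and the Lamb2 and Nid1 windows end 126 and 51 bases before the RefSeq start. No window was available for Lama4 and Lamc1.

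**Figure D1:**
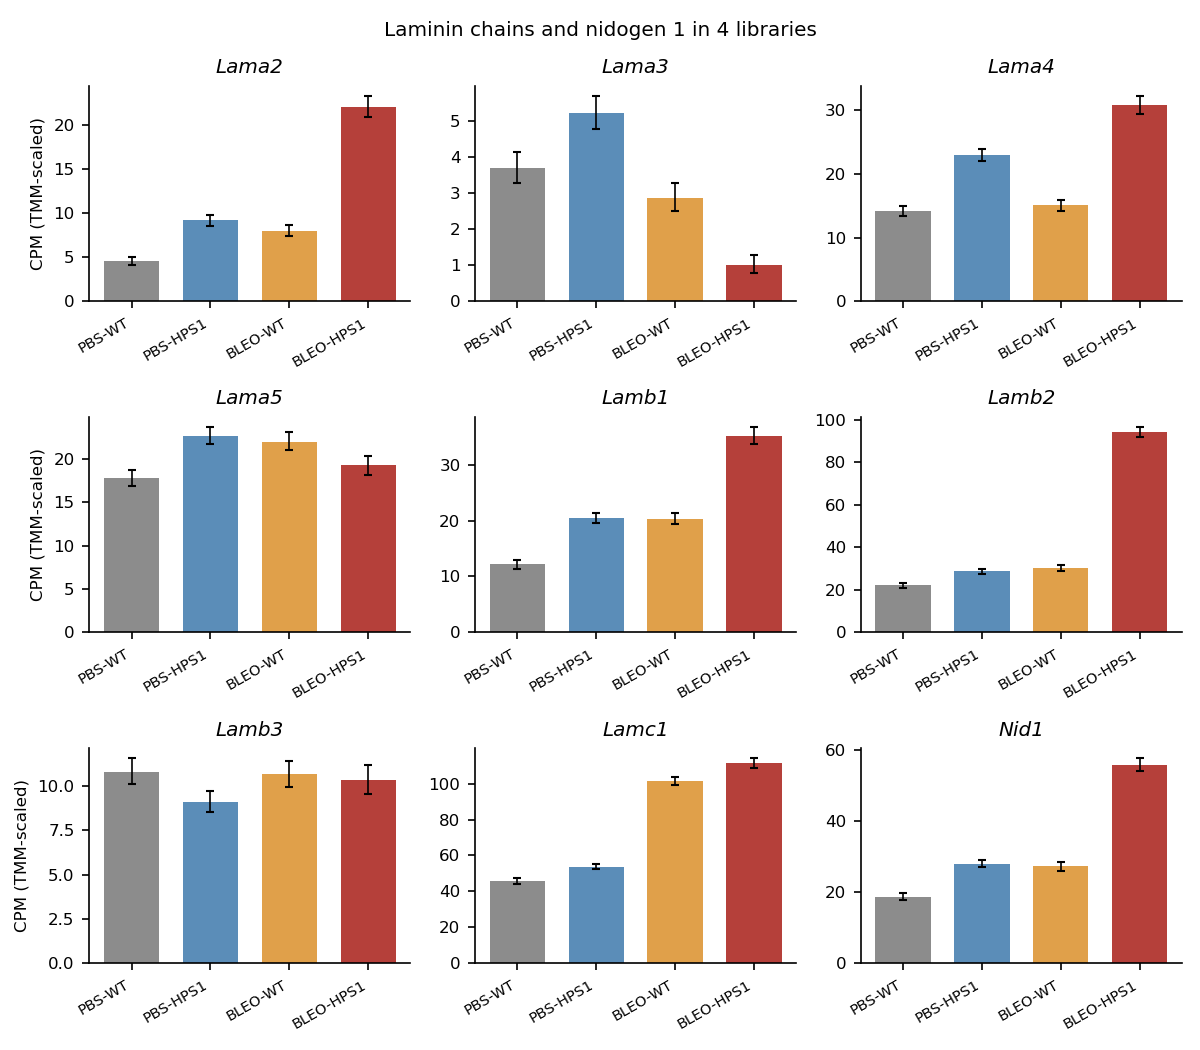
TMM-scaled CPM of the 8 laminin chain genes and Nid1 in the 4 libraries, 1 bar per library from 0 on a linear axis of its own in each panel, with error bars for the 95% interval of counting error. Lamb2 reached 94.1 CPM in BLEO-HPS1 against 22.0 to 30.2 CPM in the other 3 libraries, while Lama3 was lowest there, at 0.997 CPM.

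Among the alpha chains, Lama2 and Lama4 were highest in BLEO-HPS1, Lama3 was lowest there, and Lama5 stayed within a narrow range. Lama2 (ENSMUSG00000019899, chr10:26980036-27619758) encodes the alpha 2 chain, which joins muscle fibres and Schwann cells to their basement membrane and whose loss causes a congenital muscular dystrophy. Lama2 stood at 4.52 CPM in PBS-WT, 9.16 CPM in PBS-HPS1, 7.95 CPM in BLEO-WT and 22.1 CPM in BLEO-HPS1. It was thus higher in Hps1-/- than in wild-type libraries under both treatments. The log2 ratio of the genotypes was 1.02 (95% interval 0.84 to 1.20) with PBS and 1.47 (1.34 to 1.61) with bleomycin. Bleomycin libraries exceeded PBS libraries by a log2 ratio of 0.81 (0.62 to 1.01) in wild-type mice and 1.27 (1.15 to 1.39) in Hps1-/- mice. When libraries were scaled by total counts alone, the last of these was 0.62.

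Lama4 (ENSMUSG00000019846, chr10:38965515-39110188) encodes the alpha 4 chain, a short chain of endothelial and mesenchymal basement membranes. Its level was 14.1 CPM in PBS-WT, 22.9 CPM in PBS-HPS1, 15.0 CPM in BLEO-WT and 30.8 CPM in BLEO-HPS1. Both Hps1-/- libraries lay above both wild-type libraries. The genotype log2 ratio was 0.70 (0.59 to 0.80) with PBS and 1.03 (0.93 to 1.14) with bleomycin. With bleomycin the Lama4 log2 ratio was 0.09 (-0.03 to 0.21) in wild-type and 0.43 (0.34 to 0.51) in Hps1-/- libraries, and under scaling by total counts both turned negative, to -0.18 and -0.22. The difference between the genotypes with bleomycin was then 0.90, short of 2-fold.

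Lama5 (ENSMUSG00000015647, chr2:180176373-180225859) encodes the alpha 5 chain, which is widespread in epithelial and vascular basement membranes and needed for lung development. It stood at 17.8 CPM in PBS-WT, 22.7 CPM in PBS-HPS1, 22.0 CPM in BLEO-WT and 19.3 CPM in BLEO-HPS1. No ratio of Lama5 reached 2-fold. Its bleomycin log2 ratio was 0.31 (0.21 to 0.41) in wild-type and -0.24 (-0.34 to -0.14) in Hps1-/- libraries. Under scaling by total counts these were 0.04 and -0.88.

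Lama3 (ENSMUSG00000024421, on chromosome 18) encodes the alpha 3 chain, which pairs with the beta 3 chain in the laminin that anchors epithelial cells through hemidesmosomes. Lama3 stood at 3.68 CPM in PBS-WT, 5.21 CPM in PBS-HPS1, 2.87 CPM in BLEO-WT and 0.997 CPM in BLEO-HPS1, where it was counted in 63 reads. It was the only one of the 9 genes with a ratio at least 2-fold lower. The log2 ratio was -2.36 (-2.79 to -2.01) for BLEO-HPS1 against PBS-HPS1 and -1.50 (-1.95 to -1.12) for BLEO-HPS1 against BLEO-WT. In wild-type mice the bleomycin log2 ratio was -0.36 (-0.62 to -0.10).

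Among the beta chains, Lamb2 set BLEO-HPS1 apart from the other 3 libraries, Lamb1 was higher in each step of genotype and treatment, and Lamb3 was nearly level. Lamb2 (ENSMUSG00000052911, chr9:108479736-108490530) encodes the beta 2 chain of mature basement membranes, among them those of the kidney glomerulus and the neuromuscular junction. Lamb2 stood at 22.0 CPM in PBS-WT, 28.6 CPM in PBS-HPS1, 30.2 CPM in BLEO-WT and 94.1 CPM in BLEO-HPS1. The first 3 libraries lay close together, and BLEO-HPS1 stood far above each of them. The Lamb2 log2 ratio was 1.72 (1.65 to 1.78) for BLEO-HPS1 against PBS-HPS1 and 1.64 (1.57 to 1.71) for BLEO-HPS1 against BLEO-WT. In wild-type libraries bleomycin went with a log2 ratio of 0.46, and with PBS the genotypes differed by 0.38. The bleomycin ratios of Lamb2 in Hps1-/- and wild-type libraries differed by 1.26 (1.15 to 1.37) on the log2 scale, with all 4 libraries entering the difference.

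Lamb1 (ENSMUSG00000002900, chr12:31265234-31329644) encodes the beta 1 chain, found in most embryonic and many adult laminins. It stood at 12.2 CPM in PBS-WT, 20.5 CPM in PBS-HPS1, 20.3 CPM in BLEO-WT and 35.3 CPM in BLEO-HPS1. With TMM scaling each of its 4 log2 ratios lay between 0.74 and 0.80, and the bleomycin ratios of the genotypes differed by 0.05 (-0.10 to 0.19). No Lamb1 ratio reached 2-fold. Under scaling by total counts its ratios were uneven, 0.996 with PBS, 0.47 in wild-type mice, 0.14 in Hps1-/- mice and 0.66 between the bleomycin libraries, again under 2-fold.

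Lamb3 (ENSMUSG00000026639, chr1:193207699-193343878) encodes the beta 3 chain, the epithelial partner of the alpha 3 chain. It stood at 10.8 CPM in PBS-WT, 9.10 CPM in PBS-HPS1, 10.7 CPM in BLEO-WT and 10.3 CPM in BLEO-HPS1. It did not share the low level of Lama3 in BLEO-HPS1. Per length of exon, there were 4.77, 2.84 and 6.05 reads of Lamb3 for each read of Lama3 in PBS-WT, PBS-HPS1 and BLEO-WT, and 16.8 (13.0 to 22.2) in BLEO-HPS1. The Lamb3 log2 ratio of BLEO-HPS1 to PBS-HPS1 was 0.18, and it was -0.46 under scaling by total counts and -0.18 after a correction for transcript GC content and length.

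Lamc1 (ENSMUSG00000026478, chr1:153218922-153332786) encodes the gamma 1 chain, which most laminins contain, and it had the most reads of the 9 genes, not divided by length, in every library. Lamc1 stood at 45.7 CPM in PBS-WT, 53.6 CPM in PBS-HPS1, 102 CPM in BLEO-WT and 112 CPM in BLEO-HPS1. The bleomycin libraries lay above the PBS libraries in both genotypes, while the genotypes were close within each treatment. The Lamc1 log2 ratio with bleomycin was 1.15 (1.10 to 1.21) in wild-type and 1.06 (1.01 to 1.11) in Hps1-/- libraries. The genotype ratio was 0.23 with PBS and 0.14 (0.09 to 0.18) with bleomycin. Under scaling by total counts the bleomycin ratios were 0.89 in wild-type and 0.41 in Hps1-/- libraries, so neither reached 2-fold.

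Genes whose pattern was most like that of Lamc1 were sought among 9747 genes with a mean log2 CPM of at least 3, by the root mean square difference of centred log2 CPM over the 4 libraries. The closest were Tmem198b (0.022), Tnfrsf12a (0.031), Mt2 (0.034), Fblim1 (0.051) and Zbed3 (0.078). With only 4 points such likeness is common, and 154 genes lay within 0.2 of Lamc1.

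Nid1 (ENSMUSG00000005397, chr13:13437551-13512269) encodes nidogen 1. It stood at 18.7 CPM in PBS-WT, 28.0 CPM in PBS-HPS1, 27.2 CPM in BLEO-WT and 55.8 CPM in BLEO-HPS1. BLEO-HPS1 again held the most RNA. The Nid1 log2 ratio was 1.04 (0.96 to 1.11) for BLEO-HPS1 against BLEO-WT, just over 2-fold, and 0.99 (0.92 to 1.07) for BLEO-HPS1 against PBS-HPS1, just under it. In wild-type libraries bleomycin went with a log2 ratio of 0.54, and with PBS the genotypes differed by 0.58. Under scaling by total counts the ratio to BLEO-WT was 0.90 and that to PBS-HPS1 0.35. The ratio to PBS-HPS1 passed 2-fold with DESeq2's size factors (1.001) and after a correction for transcript GC content and length (1.36).

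**Figure D2:**
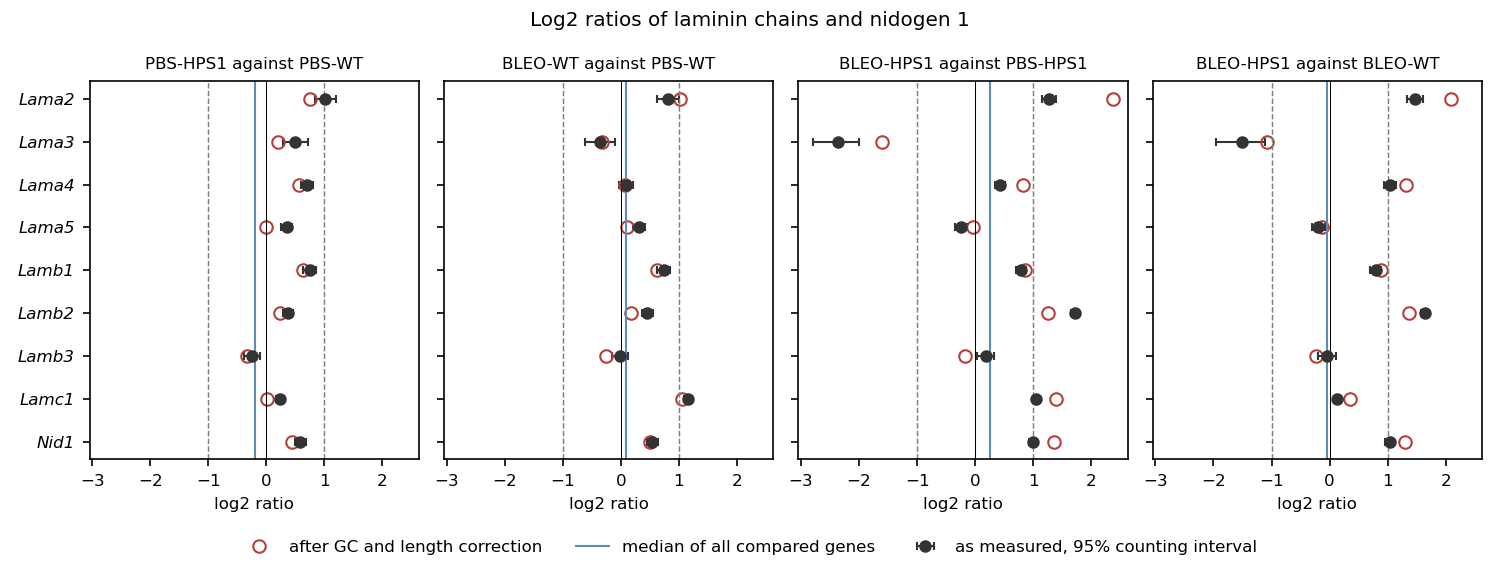
Log2 ratios of the 9 genes in the 4 comparisons, as TMM-scaled values with bars for the 95% interval of counting error and as values corrected for transcript GC content and length, with dashed lines at 2-fold and a blue line at the median of all compared genes. Lama2, Lama4, Lamb2 and Nid1 lie above the upper line and Lama3 below the lower line in BLEO-HPS1 against BLEO-WT, before and after the correction.

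Of the other genes of these families, 3 are given here with their levels in each library. Lama1, the alpha 1 chain of embryonic basement membranes, stood at 0.859 CPM in PBS-WT, 1.82 CPM in PBS-HPS1, 1.77 CPM in BLEO-WT and 4.62 CPM in BLEO-HPS1. Its log2 ratio was at least 1.02 in each of the 4 comparisons, and 0.78 with PBS and 0.95 in wild-type mice, both under 2-fold, once corrected for GC content and length. Lamc3, the gamma 3 chain, was 1.12 and 0.970 CPM in PBS-WT and PBS-HPS1 and 4.40 and 4.56 CPM in BLEO-WT and BLEO-HPS1. Like Lamc1, Lamc3 was higher with bleomycin in both genotypes, by 1.96 and 2.20 on the log2 scale. Nid2, the second nidogen, lay between 12.7 and 20.8 CPM, and its exons overlap 437 bases of Rtraf on the opposite strand, so that reads of the pair cannot be told apart if counting ignored strand. Among the 9 genes Lama2, Lama3 and Nid1 share 631, 197 and 143 exon bases with antisense gene models, of which that of Lama3 was read at most 2 times in a library.

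The comparisons share libraries with each other, so their counts are given side by side and are not independent. With PBS, 1 of the 9 genes, Lama2, was at least 2-fold higher in PBS-HPS1 than in PBS-WT and none was at least 2-fold lower, while 5.27% of the 14840 genes differed at least 2-fold, 2.16% higher and 3.11% lower. The median log2 ratio of the 9 was 0.50, against -0.19 over all genes. In wild-type mice 1 gene, Lamc1, was at least 2-fold higher with bleomycin, where 13.5% of all genes differed, 5.28% higher and 8.22% lower, and the medians were 0.46 and 0.09. These are counts in pairs of single libraries, and no spread between mice stands behind them.

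In Hps1-/- mice 3 genes (Lama2, Lamb2 and Lamc1) were at least 2-fold higher and 1 (Lama3) at least 2-fold lower with bleomycin. That share is close to the background, since 45.9% of all genes differed at least 2-fold between these libraries, 26.2% higher and 19.6% lower. The median was 0.78 for the 9 genes and 0.25 for all genes. Between the bleomycin libraries 4 genes (Lama2, Lama4, Lamb2 and Nid1) were at least 2-fold higher in BLEO-HPS1 and 1 (Lama3) lower, where 17% of all genes differed, 6.72% higher and 10.3% lower. The median of the 9 was 0.80 here and that of all genes -0.04. At a stricter 4-fold threshold 1 gene remained in all 4 comparisons, Lama3 in BLEO-HPS1 against PBS-HPS1, where 9.87% of all genes passed, and the backgrounds of the others were 1.28% with PBS, 2.96% in wild-type mice and 1.91% between the bleomycin libraries.

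The bleomycin log2 ratio in Hps1-/- libraries minus that in wild-type libraries separated the chains. It was 1.26 for Lamb2, 0.45 for Lama2, 0.45 for Nid1, 0.34 for Lama4 and 0.20 for Lamb3. It was 0.05 for Lamb1 and -0.10 (-0.17 to -0.02) for Lamc1, -0.55 (-0.69 to -0.40) for Lama5 and -2.00 (-2.45 to -1.55) for Lama3. Under scaling by total counts, which lowers all these differences alike, Lama2 and Nid1 were left with 0.08 and 0.07, Lama4, Lamb1 and Lamb3 turned to -0.04, -0.33 and -0.18, and Lamb2 kept 0.88. After a correction of the ratios for transcript GC content and length the differences were 1.35 for Lama2, 1.08 for Lamb2, 0.85 for Nid1, 0.75 for Lama4 and 0.24 for Lamb1, so that Lamb2 was the highest without this correction and Lama2 with it. The corrected difference of Lamc1 changed sign to 0.34, and those of Lamb3, Lama5 and Lama3 were 0.07, -0.15 and -1.28.

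Read levels per kilobase of exon allow the chains of a class to be set beside each other. Among the 5 alpha chains, Lama5 took 45.4 and 38.9% of this level in PBS-WT and PBS-HPS1, and 47.0 and 27.4% in BLEO-WT and BLEO-HPS1. Lama4 took 34.1, 37.1, 30.3 and 41.4% in the same order, and Lama2 took 8.04, 10.9, 11.8 and 21.9%. Lama3 took 9.96, 9.46, 6.49 and 1.51%. Lama1 took the rest, 2.58, 3.66, 4.45 and 7.74%. In BLEO-HPS1 the shares of Lama1, Lama2 and Lama4 were thus at their highest and those of Lama3 and Lama5 at their lowest. Lama4 passed Lama5 only in BLEO-HPS1 by exon length. With the length of the longest transcript Lama4 led in all 4 libraries, with 43.6 to 52.8% against 17.5 to 33.9%, so the order of these neighbours is not settled by the data.

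The ratio of Lama2 to Lama5 per length was 0.177 and 0.281 in PBS-WT and PBS-HPS1, 0.252 in BLEO-WT and 0.798 (0.738 to 0.862) in BLEO-HPS1. A ratio within a library does not depend on how libraries are scaled, and it shows unequal change of the chains. It can still move with GC content and length, and the shares and ratios per length were not corrected for them. Between the bleomycin libraries the corrected log2 ratios were 2.10 for Lama2 and -0.13 for Lama5, against 1.47 and -0.19 before. Lamb2 took 55.8 to 57.7% of the beta chain level in the first 3 libraries and 75.1% in BLEO-HPS1. Lamb1 took 18.9 and 25.4% in PBS-WT and PBS-HPS1, and 23.7 and 17.3% in BLEO-WT and BLEO-HPS1. Lamb3 took 25.2, 16.9, 18.7 and 7.59% in that order, its smallest share again in BLEO-HPS1. There were 4.34 (4.14 to 4.56) reads of Lamb2 per read of Lamb1 in BLEO-HPS1, after length, against 2.27 to 2.95 elsewhere. The correction for GC content and length brought these chains closer together. Between the bleomycin libraries it moved the Lamb2 log2 ratio from 1.64 to 1.37 and that of Lamb1 from 0.80 to 0.88.

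Of the nidogens, Nid1 took 52.2 and 58.7% in PBS-WT and PBS-HPS1, and 49.3 and 67.9% in BLEO-WT and BLEO-HPS1. The summed level per kilobase was 3.44, 5.13, 4.12 and 6.17 CPM for alpha chains and 6.48, 8.14, 8.63 and 20.6 CPM for beta chains, with the libraries in the same order. Both sums were highest in BLEO-HPS1.

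**Figure D3:**
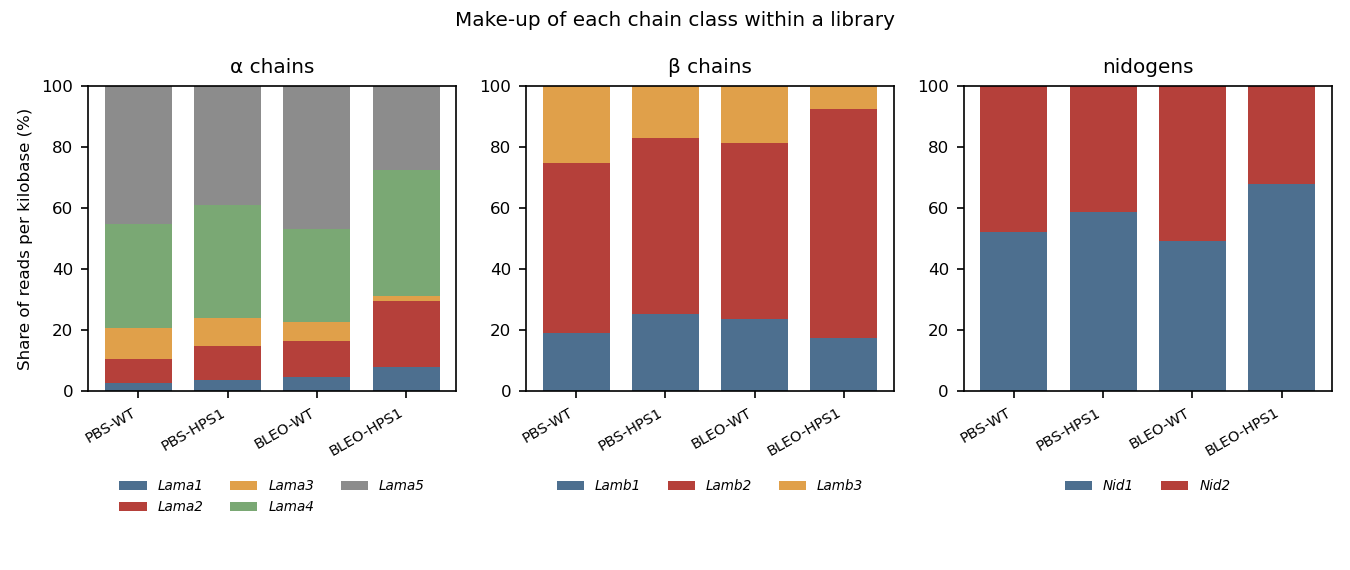
Share of each chain in the summed CPM per kilobase of exon of its class (alpha and beta laminin chains and nidogens) in the 4 libraries. Lamb2 takes 75.1% of the beta chain level in BLEO-HPS1 and 55.8 to 57.7% in the others, and Lama2 takes 21.9% of the alpha chain level there and 8.04 to 11.8% in the others.

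Other basement membrane components were counted as a group for BLEO-HPS1 against BLEO-WT. Of 23 listed genes 20 were compared, 7 were at least 2-fold higher, 2 at least 2-fold lower and 11 within 2-fold, with a median log2 ratio of 0.57. Over all genes 17% differed at least 2-fold, 6.72% higher and 10.3% lower. The higher ones included Hspg2, the heparan sulfate proteoglycan perlecan, at 112 against 36.1 CPM, and Col18a1, at 46.5 against 15.1 CPM. Col15a1 stood at 37.1 against 16.0 CPM and Smoc2, a matricellular calcium-binding protein, at 23.2 against 3.28 CPM. Egflam, the dystroglycan ligand pikachurin, stood at 21.2 against 9.92 CPM, Smoc1 at 4.78 against 1.01 CPM and Col4a6 at 1.36 against 0.638 CPM. The type IV collagen genes Col4a1 and Col4a2, to which nidogen links the laminins, were just under 2-fold, with log2 ratios of 0.95 and 0.99. Col4a3, a type IV collagen chain of alveolar and glomerular basement membranes, was lower, at 0.696 against 2.69 CPM, as was Fras1 at 0.174 against 0.434 CPM. After the GC and length correction 7 were higher and 1 lower, where 9.81% of all genes were at least 2-fold apart. The log2 ratio of Fras1 was then -0.72, under 2-fold.

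Laminin receptors and the enzymes that glycosylate dystroglycan were at least 2-fold apart about as often as all genes or less, beside the 17% over all genes. Of 20 receptor genes 2 were at least 2-fold higher, 1 was lower and 17 were within 2-fold, with a median of 0.24. Sdc2, the proteoglycan syndecan 2, stood at 9.85 against 4.03 CPM. Rpsa stood at 4574 against 2077 CPM. It encodes a ribosomal protein also described as a laminin receptor and has many processed pseudogenes that can share its reads. Itga6, the integrin alpha 6 subunit of laminin-binding integrins, was lower, at 61.7 against 129 CPM. After the GC and length correction Itga6 and Rpsa were under 2-fold, with log2 ratios of -0.89 and 0.85. There were then again 2 receptor genes at least 2-fold higher and 0 lower, so the higher ones were not the same set. Of 11 glycosylation genes 1, Pomgnt2, was at least 2-fold higher, at 3.21 against 1.42 CPM, and the median was 0.20. Corrected for GC content and length, Pomgnt2 stood at 0.66, none of the 11 was 2-fold apart and the median was 0.05. The corrected counts of both lists stand beside 9.81% of all genes.

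**Figure D4:**
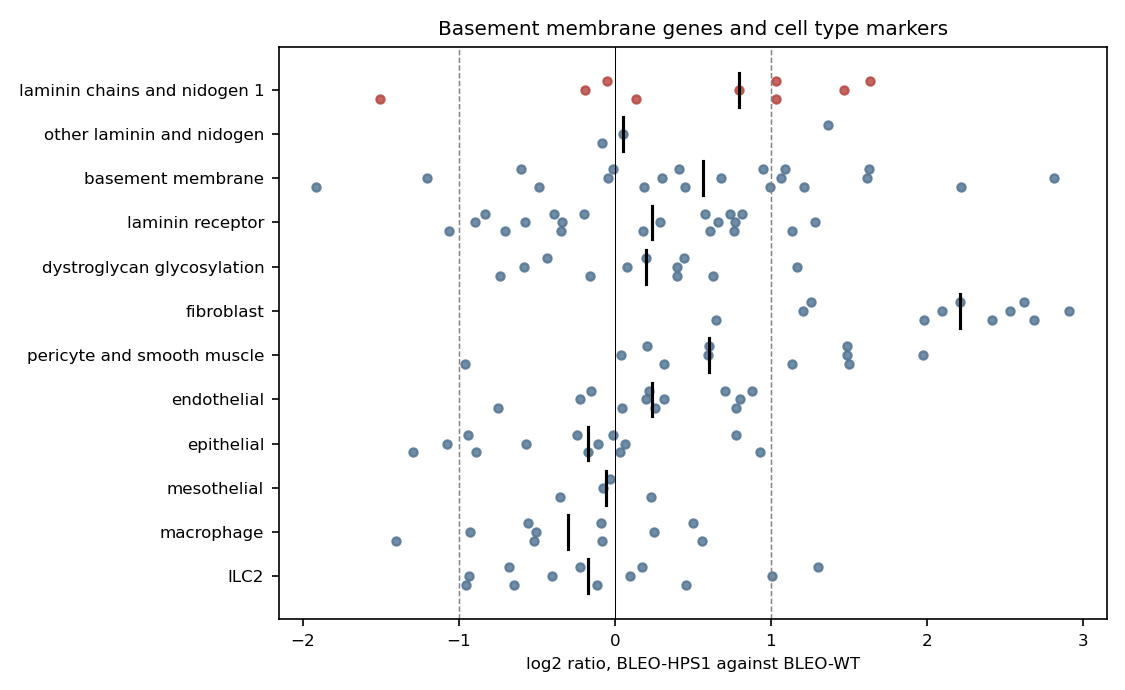
Log2 ratios of BLEO-HPS1 against BLEO-WT for each compared gene of the laminin and nidogen genes, their basement membrane partners, their receptors and the marker lists of other lung cells, 1 point per gene with a line at the median. Fibroblast markers have a median of 2.21 and the 9 laminin and nidogen genes one of 0.80, while endothelial markers have 0.24 and macrophage markers -0.30.

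Markers of other lung cells differed between the same libraries. Fibroblast markers summed to 236 CPM in PBS-WT, 373 CPM in PBS-HPS1, 630 CPM in BLEO-WT and 3021 CPM in BLEO-HPS1, and 10 of the 11 compared were at least 2-fold above BLEO-WT in BLEO-HPS1. The exception was Pdgfra, at 35.0 against 22.4 CPM. Most of the BLEO-HPS1 sum came from Col1a1, Col1a2 and Col3a1, at 982, 813 and 731 CPM. The study had already reported these collagen genes and Scara5 as higher in cells of bleomycin-treated Hps1-/- mice. Pericyte and smooth muscle markers summed to 75.6, 96.2, 108 and 166 CPM, with 5 of 11 at least 2-fold higher, or 3 after the GC and length correction. With TMM scaling both sums were lowest in PBS-WT and highest in BLEO-HPS1, as were Lama2, Lama4, Lamb1, Lamb2, Lamc1 and Nid1. Under scaling by total counts Lama4 left this order, with log2 ratios of -0.18 (BLEO-WT against PBS-WT) and -0.22 (BLEO-HPS1 against PBS-HPS1). Lamc1 was then level between the bleomycin libraries (0.003). Endothelial markers summed to 1075, 1016, 1092 and 1423 CPM, with 0 of 12 at least 2-fold apart between the bleomycin libraries. Epithelial markers summed to 1429, 1071, 916 and 675 CPM, with 2 of 13 at least 2-fold lower in BLEO-HPS1, where Lama3 was lowest too, and 4 after the correction. The epithelial genes differed among themselves. Sftpc, the surfactant protein C of alveolar type 2 cells, went from 816 CPM in PBS-WT to 185 CPM in BLEO-HPS1, libraries that differ in genotype and treatment. Between the same libraries Krt8 went from 8.15 to 19.7 CPM, Krt18 from 4.54 to 11.9 CPM, Ager from 58.4 to 96.1 CPM and Cdh1 from 67.8 to 105 CPM. In BLEO-WT, Sftpc stood at 343 CPM, Krt8 at 10.4 CPM, Krt18 at 6.94 CPM, Ager at 93.8 CPM and Cdh1 at 105 CPM. Ager and Cdh1 were thus nearly level between the bleomycin libraries. Mesothelial markers stayed between 12.2 and 15.9 CPM. Between the bleomycin libraries 2 of 12 ILC2 markers (Thy1 and Klrg1) were at least 2-fold higher in BLEO-HPS1 and 1 of 10 macrophage markers (Mrc1) lower, and after the correction none was. Of the 12 ILC2 markers 5 had a ratio above 0 and 7 below 0. Among the latter were Il7r at 76.9 against 149 CPM, Rora at 13.2 against 25.2 CPM, Icos at 32.1 against 51.4 CPM and Il1rl1 at 23.8 against 37.3 CPM. After the correction 6 of the 12 were above 0, and their median went from -0.17 to 0.02. The ILC2 sum was 844 CPM in BLEO-HPS1 and 623 CPM in BLEO-WT, of which Thy1 made 551 and 224 CPM. The shares of markers at least 2-fold apart stand beside the 17% of all genes, and those after the correction beside 9.81%. Every marker of these lists was read more than 3 times in every library, so none was at 0. The part of these cells in the laminin levels was not tested.

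The ratios also moved with transcript composition. Over 11133 genes whose mean log2 CPM exceeded 2, the ratio between the bleomycin libraries had a Spearman's rho of 0.61 with GC content and of -0.49 with transcript length, a description across genes that share these libraries. In wild-type mice given bleomycin or PBS these values were 0.49 and -0.26. The 9 transcripts span 47.7% GC (Lama2) to 59.9% GC (Lama5). After a loess correction of all ratios for GC content and length, the ratios between the bleomycin libraries were 2.10 for Lama2, 1.37 for Lamb2, 1.31 for Lama4, 1.30 for Nid1 and -1.09 for Lama3, so the same 5 genes were at least 2-fold apart, where 9.81% of all genes then were. Lamb3 was -0.24 after the correction and Lama5 -0.13. The Lama2 difference between the PBS libraries became 0.76, under 2-fold, and its bleomycin ratio in wild-type libraries became 1.02. With the correction 0 of the 9 genes were 2-fold apart between the PBS libraries (5.11% of all genes), 2 in wild-type mice (11.2%) and 5 in Hps1-/- mice (24.9%).

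**Figure D5:**
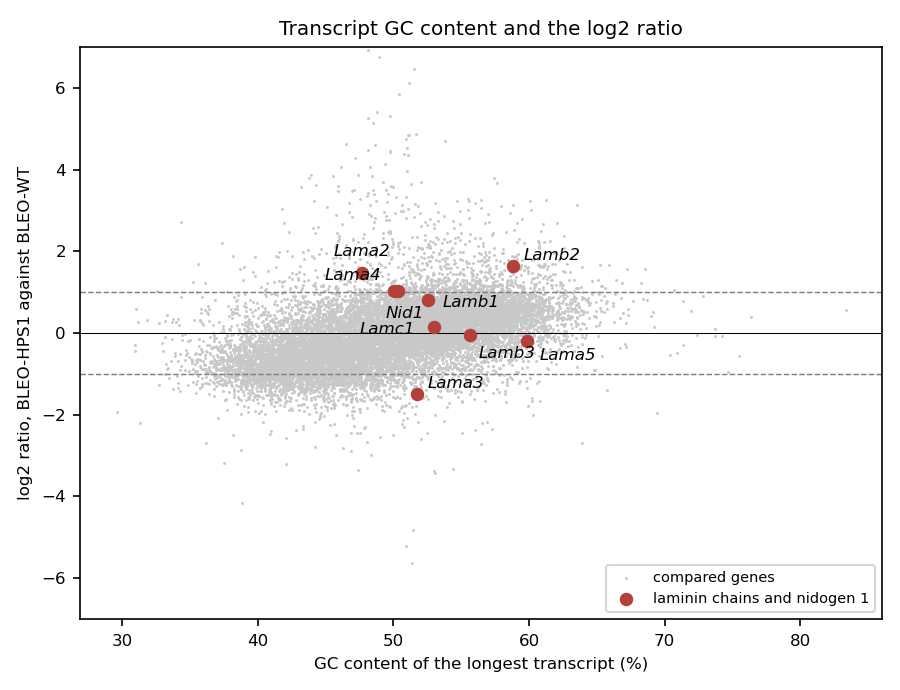
GC content of the longest transcript (%) against the log2 ratio of BLEO-HPS1 over BLEO-WT, for all compared genes with a known GC content, with the 9 laminin and nidogen genes in red and dashed lines at 2-fold. The cloud slopes upward with GC content (Spearman's rho 0.61 over the genes whose mean log2 CPM exceeded 2). Lama2, at 47.7% GC, lies above the upper dashed line with a log2 ratio of 1.47. Lama5, at 59.9% GC, lies between the lines with -0.19.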

How the data were processed

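RNA of cells labelled ILC2 was prepared with a SMARTER mRNA kit and sequenced, 1 library for each of 4 groups taken from the sample labels. The authors deposited raw counts, as whole reads for each Ensembl gene and library. The aligner, the counter, the genome build and whether counting used strand are not given in the sources used here. Positions, exon lengths and GC contents came from GENCODE M21 on GRCm38, in which 48970 of 49315 identifiers were found, and promoter sequences from RefSeq.

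TMM scaling in edgeR 4.0.16 (R 4.3.3) was applied to the counts, with factors of 1.08 and 1.27 for the wild-type and Hps1-/- PBS libraries and 0.895 and 0.816 for the bleomycin libraries. Genes with at least 1 CPM in at least 1 library were compared. Log2 ratios used a prior count of 2, and a gene at least 2-fold apart (log2 of 1) was counted. edgeR's quasi-likelihood test needs replicates and was not used. PCR copies of a molecule are counted as separate reads, so intervals cover counting error only. In simulated counts for BLEO-HPS1 against BLEO-WT over 14114 genes, 200 of 200 genes changed 4-fold were found in the right direction. These counts held counting error alone, with no trend with GC content or length and no spread between mice. The simulation therefore checks the calculation only and does not show how reliable the ratios of the real libraries are. The 9 members and all lists were chosen with earlier results of these data known. Named are all members, other laminin and nidogen genes, of which 1 is not reported here, list genes at least 2-fold apart between the bleomycin libraries (up to 8 per list, by CPM), and the 5 genes most like Lamc1. Fras1 was named beyond the limit of 8 for its list. Col4a1, Col4a2 and single cell type markers were named after their values were seen.

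Alternatives were DESeq2 1.42.0 size factors, total counts, 2 other prior counts (0.5 and 10), all genes without a filter, a minimum of 10 reads in each library, a log2 threshold of 2, loess-corrected ratios (on GC content and length, span 0.3), and the longest transcript in place of exon length.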

Additional observations from a re-analysis of the deposited data

Results flagged for a closer look

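With TMM scaling, Lama5 moved in opposite directions with bleomycin in the 2 genotypes. Its log2 ratio was 0.31 in wild-type and -0.24 in Hps1-/- libraries, a difference of -0.55. With 1 library per group the difference was not tested against the spread between mice. Corrected for GC content and length, the 2 ratios were 0.11 and -0.04 and differed by -0.15. Under scaling by total counts they were 0.04 and -0.88 and differed by -0.92, with almost no rise in wild-type libraries.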

How the results depend on the processing

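The median log2 ratio of the 9 genes kept its sign in all 4 comparisons under every alternative run. Scaling by total counts gave median log2 ratios of the 9 genes of 0.74 (PBS-HPS1 against PBS-WT), 0.19 (BLEO-WT against PBS-WT), 0.14 (BLEO-HPS1 against PBS-HPS1) and 0.66 (BLEO-HPS1 against BLEO-WT), and moved the median of all genes to 0.06, -0.18, -0.43 and -0.18. Relative to all genes the 9 stood 0.69, 0.37, 0.58 and 0.85 higher, against 0.69, 0.36, 0.53 and 0.84 with TMM. The number of the 9 at least 2-fold apart with total counts was 0 in BLEO-WT against PBS-WT, 2 in BLEO-HPS1 against PBS-HPS1 and 3 in BLEO-HPS1 against BLEO-WT. The share of all genes at least 2-fold apart was not counted under this scaling, so these numbers have no background to be judged by. The correction for GC content and length gave medians of 0.24 with PBS and 0.18 in wild-type mice. The counts there were 0 and 2, beside 5.11 and 11.2% of all genes. With a log2 threshold of 2, the counts were 0, 0, 1 and 0 in the same order of comparisons, beside 1.28, 2.96, 9.87 and 1.91% of all genes. The causes were not tested. Of 36 single ratios, total counts moved 33 outside their 95% interval, the GC and length correction 29, DESeq2's size factors 1, and the prior counts and filters none. The longest transcript in place of exon length moved 30 of the shares and left 2 within their interval. No paired analysis was possible because each group held 1 library and the labels carry no replicate numbers. Depth was not the main limit, as the lowest member, Lama3 in BLEO-HPS1, still had 63 reads.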
